A study of Ovis aries with 15 samples.

Results

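Probes for genes of mitochondrial oxidative phosphorylation were taken from an ovine microarray by their names and descriptions. The names searched were those starting with NDUF, SDH, UQCR, COX and a number, ATP5 or MT-, and the descriptions searched were those of NADH dehydrogenase, cytochrome c oxidase, ubiquinol-cytochrome c reductase and ATP synthase. Of 15008 probes, 12 met this rule, for 10 of the 14344 names on the array, and all 12 were well above background on all 15 arrays and were tested. Annotation placed 9 of them in 8 genes of the respiratory chain or ATP synthase. These were NDUFA2 and NDUFA12 of complex I, COX5A of complex IV, COX15, which is needed to assemble complex IV, and ATP5MC1 (2 probes), ATP5MC2, ATP5PO and ATP5PD of complex V. The other 3 met the wording of the rule only. A pair of these, sharing 59 bases, carried an old name of the metallothionein MT3 that begins with MT-, and TC13187 was an unnamed cluster with a partial likeness to a ciliate NADH-ubiquinone oxidoreductase chain. No probe for complex II or III met the rule.

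The samples were kidney cortex from 15 fetal sheep carrying chronic catheters, at 125 ± 3 d of gestation (term is 145 to 147 d). Maternal ventilation exposed each fetus to hypoxia or normoxia for 30 min, and the fetus was given ketamine (3 mg/kg, intravenously, 10 min earlier) or saline as vehicle. Ketamine, an anaesthetic, is an antagonist of the NMDA class of glutamate receptor. The cortex was taken 24 h after the exposure began, and each fetus gave 1 one-colour array. The normoxic fetuses were 3 given vehicle and 4 given ketamine, and the hypoxic fetuses were likewise 4 and 4. The study asked how hypoxia changes expression in the fetal kidney and how ketamine alters that response.

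Oxidative phosphorylation passes electrons from NADH and succinate through complexes I to IV to oxygen and uses the resulting proton gradient to make ATP at complex V. Kidney cortex, and the proximal tubule above all, depends on it to drive sodium reabsorption. Most subunits are encoded in the nucleus, as were those measured here, and a few in mitochondrial DNA.

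Values are log2 signals relative to the 75th percentile of each array, which was 1064 to 1425 in scanner units, and an array had 75.4% to 85.0% of its probes well above background. Each array is 1 fetus, and the number of arrays limits the precision. A gene is said to have risen or fallen where limma gave an unadjusted p of 0.05 or less, which is the cutoff named by the submitters, and errors after ± on a change are SE from 1 variance per probe shared by the 4 groups. Among tissue markers, 4 of 5 measured proximal tubule genes, SLC34A1, AQP1, PCK1 and SLC4A4, and the podocyte gene WT1 were well above background on all 15 arrays, and no gene of the loop and distal tubule list was matched. For these markers and for every gene list below, a gene with several probes was represented only by the probe with the highest mean signal. In bulk tissue, fewer cells of a type and less RNA per cell cannot be told apart. The summed signal of 7 leukocyte markers was 126% of the 75th percentile on the 3 normoxic vehicle arrays, 104% to 143% on the normoxic ketamine arrays, 146% to 491% on the hypoxic vehicle arrays and 180% to 461% on the hypoxic ketamine arrays. That of the 5 proximal tubule markers overlapped between all groups (766% to 1435% over the arrays). Single markers did change. Of 7 leukocyte markers, 4 rose and 0 fell after hypoxia with vehicle, where 5.77% of all tested probes were higher. They were FCGR1A (2.45 ± 0.54), CD86 (1.65 ± 0.42), FCER1G (1.04 ± 0.39) and CD14 (0.95 ± 0.31). With ketamine 3 of the 7 rose, where 3.71% of all were higher: FCGR1A (1.46 ± 0.50), CD86 (1.38 ± 0.39) and FCER1G (1.17 ± 0.36). Over the 26 other settings these rises kept their call and size in 22 to 25. Other filters, fits to the compared groups and leaving out an array of another group could move only the p, not the size. SLC4A4, the proximal tubule bicarbonate transporter, fell after hypoxia by 0.54 ± 0.17 with vehicle and by 0.61 ± 0.16 with ketamine, but did not pass with normexp background correction (-0.36 and -0.05), within slide 2 with vehicle (-0.43) or within slide 1 with ketamine (-0.50). KDR, an endothelial receptor, fell by 0.38 ± 0.14 and 0.35 ± 0.13, and did not pass with normexp correction or within either slide, without normoxic vehicle replicate 3 (-0.28), or under ketamine without normoxic ketamine replicate 3 (-0.27) or hypoxic ketamine replicate 1 (-0.31). AQP3, a water channel of the collecting duct, rose by 0.73 ± 0.22 with vehicle but did not pass within slide 2 (0.43). The part of these markers in the results below was not tested.

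The probes that the results turn on are printed from the array annotation, 5′ to 3′, for COX15, the only member that passed a test, and for 3 of the other members whose values are given by array.
COX15: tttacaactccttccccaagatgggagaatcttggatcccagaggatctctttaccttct
NDUFA12: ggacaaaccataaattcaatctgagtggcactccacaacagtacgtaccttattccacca
NDUFA2: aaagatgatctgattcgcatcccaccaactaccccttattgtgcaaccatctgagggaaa
ATP5PD: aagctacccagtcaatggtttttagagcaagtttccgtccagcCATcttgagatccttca
Each is 60 bases long. In the ATP5PD probe the capitals, bases 44 to 46, read ATG on the opposite strand, followed there by an open frame, 15 codons in all with the ATG. The labelled material was cRNA, which is complementary to the RNA, so a probe reports an mRNA when it has the mRNA's own strand. Which strand of the gene the ATP5PD probe holds is not given in the sources used here. If that ATG is the start codon of the gene, the probe is complementary to the mRNA and would not report it. The ATP5PD values and counts below are therefore those of this probe only, and may not be those of ATP5PD mRNA. The medians, sign counts and correlations given below for the subunit and assembly probes include this probe.

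**Figure D1:**
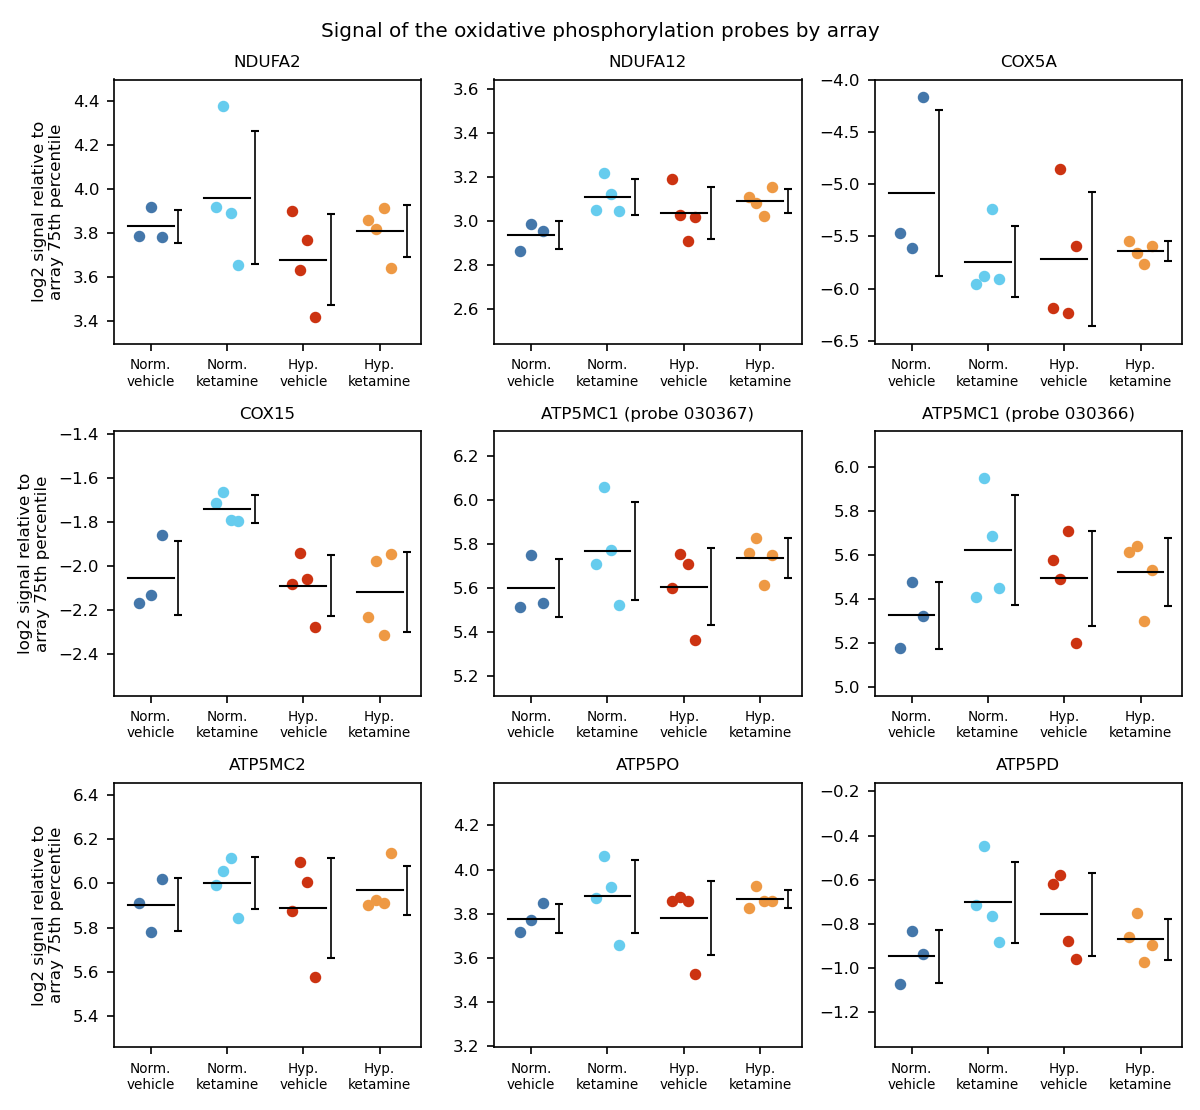
Each point is the log2 signal of 1 probe on 1 array, relative to the array's 75th percentile, in the normoxic (Norm.) and hypoxic (Hyp.) groups given vehicle or ketamine (3, 4, 4 and 4 arrays). Lines are group means and bars beside them ±1 SD. The normoxic ketamine arrays stand above all 4 hypoxic ketamine and all 3 normoxic vehicle arrays for COX15, and the groups overlap in most other panels.

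In vehicle fetuses, hypoxia was followed by no change in the oxidative phosphorylation probes that passed the test. Of the 12 probes, 0 rose and 0 fell, where 16.1% of all 12923 tested probes passed (5.77% higher and 10.4% lower), and 0 passed after Benjamini-Hochberg adjustment in limma, where 0.0155% of all did. The groups overlapped for every one of the 12 probes, and did not overlap for 14.6% of all. The median change of the 9 subunit and assembly probes was 0.00 against -0.05 over all tested probes, and 5 of the 9 were positive. Apart from COX5A, the outermost 95% bounds of the 8 remaining probes were -0.50 (NDUFA2) and 0.51 (ATP5MC1, probe A_70_P030366).

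The 2 complex I genes encode small accessory subunits. NDUFA2 lay at 3.79, 3.92 and 3.78 in the normoxic vehicle fetuses and at 3.90, 3.63, 3.77 and 3.42 in the hypoxic vehicle fetuses. With ketamine it was 3.92, 4.38, 3.89 and 3.66 after normoxia and 3.86, 3.82, 3.92 and 3.64 after hypoxia. The highest array was normoxic ketamine replicate 2 and the lowest hypoxic vehicle replicate 4, and the groups overlapped in every comparison. Its change after hypoxia was -0.15 ± 0.16 in vehicle and -0.15 ± 0.15 in ketamine fetuses. NDUFA12 was the probe with the smallest pooled SD within groups, 0.08. It lay at 2.86, 2.99 and 2.95 in the normoxic vehicle fetuses and at 3.05, 3.22, 3.12 and 3.04 in the normoxic ketamine fetuses, which did not overlap. The hypoxic fetuses lay within the span of these values, from 2.91 to 3.19 with vehicle and from 3.02 to 3.15 with ketamine. Its largest change, 0.17 ± 0.10 with ketamine in normoxic fetuses, did not pass the test.

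Complex IV, cytochrome c oxidase, was represented by the nuclear-encoded subunit COX5A. The COX5A probe has 0 open frames on either strand, so frames do not tell which strand of the gene it holds. Values are given by probe only. The probe was dim, with a signal of 15.2 to 65.8 in scanner units, and its pooled SD of 0.51 was the largest of the 9. It lay at -5.47, -5.61 and -4.17 in the normoxic vehicle fetuses, the last being replicate 3. The hypoxic vehicle fetuses were at -6.18, -4.85, -6.23 and -5.59 and overlapped with them. The normoxic ketamine fetuses were at -5.95, -5.88, -5.23 and -5.91, and the hypoxic ketamine fetuses at -5.54, -5.66, -5.76 and -5.59. The change after hypoxia in vehicle fetuses was -0.63 ± 0.36 (limma, adjusted p = 0.405), with a 95% interval of -1.41 to 0.15. Without normoxic vehicle replicate 3 it was -0.17, and it passed without normoxic vehicle replicate 2 (-0.90) or hypoxic vehicle replicate 2 (-0.92). Within slide 2, where that array is the only one of its group, it was -2.04, and within slide 1 it was 0.32.

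COX15 is an enzyme of the inner membrane that makes heme A, the cofactor of cytochrome c oxidase. In the normoxic vehicle fetuses it lay at -2.17, -2.13 and -1.86. The normoxic ketamine fetuses were at -1.72, -1.66, -1.79 and -1.80, all above every normoxic vehicle array. The hypoxic vehicle fetuses were at -2.08, -1.94, -2.06 and -2.28. The hypoxic ketamine fetuses were at -2.23, -1.98, -2.31 and -1.95, all below every normoxic ketamine array. The normoxic ketamine group thus stood alone, and the other 3 groups overlapped, with means from -2.12 to -2.05. Hypoxia changed COX15 by -0.04 ± 0.13 in vehicle fetuses.

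With ketamine on board, 1 of the 12 probes fell after hypoxia and 0 rose, where 8.67% of all tested probes passed (3.71% higher and 4.97% lower). That probe was COX15, which fell by 0.38 ± 0.12 on the log2 scale, a 1.30-fold difference between 4 and 4 fetuses. Its adjusted p in limma was 0.366, and the two-sided exact permutation p, computed for COX15 only, was 0.0286, the smallest that 70 splits allow. Any probe whose 4 and 4 arrays do not overlap gives that permutation p, so it adds nothing to the lack of overlap. COX15 was the only member of the 12 whose groups did not overlap, against 6.52% of all tested probes. The fall was -0.20 with normexp background correction and -0.27 within slide 1, where it no longer passed, and -0.48 within slide 2. With any 1 array left out it lay between -0.43 and -0.31 and passed each time.

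The other members moved less in this comparison. Of the 8 subunit and assembly probes without COX5A, 0 were positive, with a median of -0.03 over all 9 and of -0.02 over all tested probes. ATP5PD changed by -0.17 ± 0.12 and NDUFA12 by -0.02 ± 0.09, and neither passed.

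In normoxic fetuses, ketamine against vehicle gave 1 rise and 0 falls among the 12 probes, where 2.71% of all tested probes passed (0.952% higher and 1.76% lower). COX15 rose by 0.31 ± 0.13 on the log2 scale, 1.24-fold in 4 against 3 fetuses (limma, adjusted p = 0.9998). The two-sided exact permutation p was 0.0286, the smallest that 35 splits allow. That value is reached only where groups do not overlap, so it is not separate evidence. Groups did not overlap for 3 of the 12 probes, against 7.12% of all tested probes: COX15, NDUFA12 and TC13187, the last being lower with ketamine. The median change of the 9 subunit and assembly probes was 0.17 against -0.02 over all tested probes, and 8 of the 9 were positive where 46.7% of all were. The median of all 12 was 0.11, and it was 0.24 within slide 1, -0.026 within slide 2, 0.05 with quantile normalization, 0.05 in the value table, 0.05 without normoxic ketamine replicate 2 and 0.18 without normoxic ketamine replicate 4. Apart from COX5A the outermost 95% bounds were -0.22 (NDUFA2) and 0.64 (ATP5MC1, probe A_70_P030366). This comparison and the previous one share the 4 normoxic ketamine arrays, so the COX15 values in them are not independent.

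COX5A changed by -0.66 ± 0.36 in this comparison and did not pass, except within slide 2 (-1.40) and without normoxic vehicle replicate 2 (-0.92) or normoxic ketamine replicate 3 (-0.83), and without normoxic vehicle replicate 3 it was -0.20.

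The COX15 rise with ketamine did not pass in several settings. It no longer passed without normoxic vehicle replicate 1 (0.25) or replicate 2 (0.27), nor without normoxic ketamine replicate 1 (0.30) or replicate 2 (0.29). It was 0.19 with normexp background correction, 0.46 within slide 1 and 0.06 within slide 2, and did not pass in any of them. Slide 2 holds 1 normoxic vehicle array, replicate 3, the highest of its group at -1.86, and the value within that slide rests on it. Placental lactogen, a hormone of the trophoblast, was well above background on 3 arrays, normoxic ketamine replicates 1 and 2 and hypoxic ketamine replicate 2. Its log2 signal there was -2.97, -3.30 and -6.18, and the other 12 arrays had -7.90 or less. The summed signal of the 6 trophoblast markers on the array was 4.23% to 7.07% of the 75th percentile in the normoxic vehicle, 4.29% to 69.7% in the normoxic ketamine, 3.90% to 5.25% in the hypoxic vehicle and 4.17% to 12.8% in the hypoxic ketamine arrays. None of the 6 was above background on every array. Without those 3 arrays, the COX15 change with ketamine in normoxic fetuses was 0.26 and did not pass, and its fall after hypoxia under ketamine was -0.37 and passed.

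**Figure D2:**
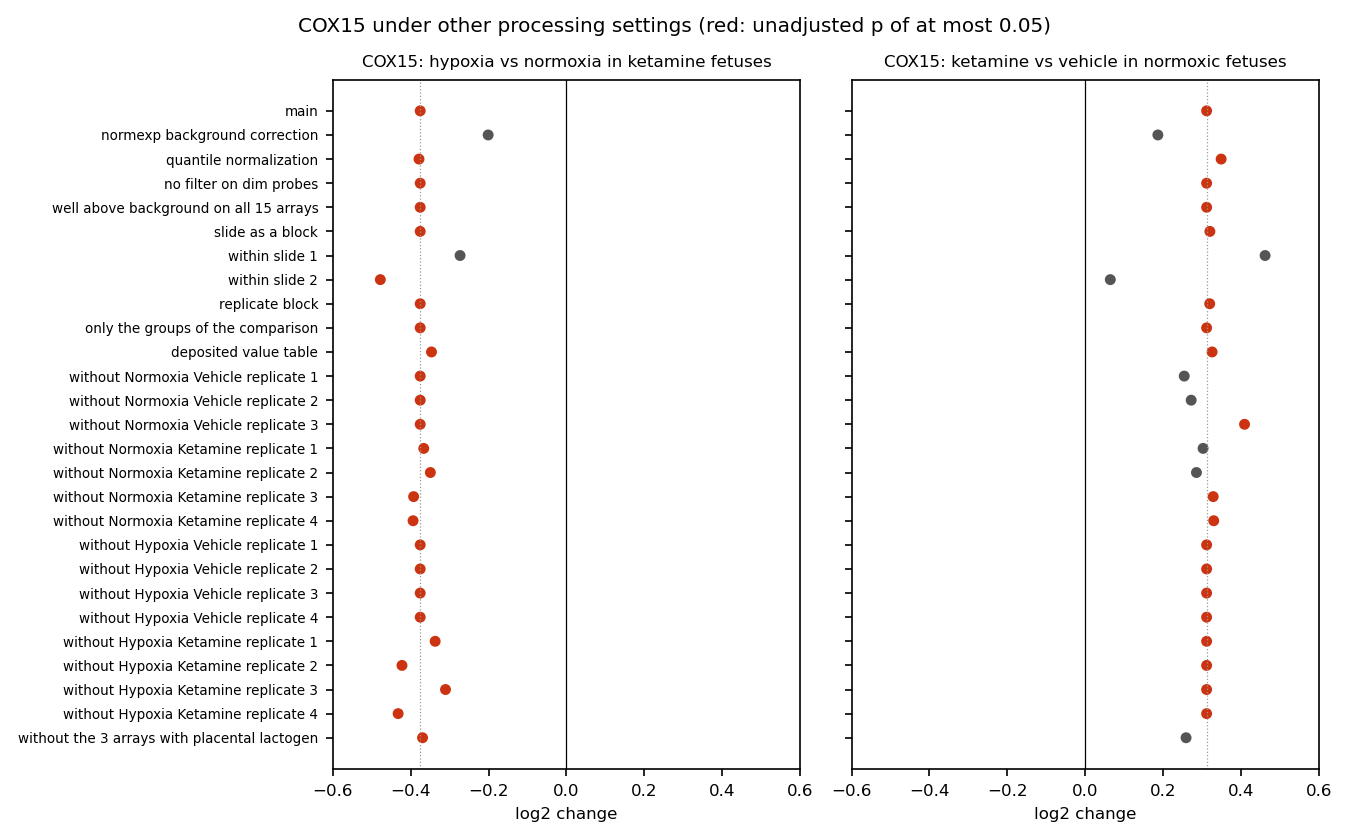
Each point is the log2 change of COX15 under 1 processing setting, for hypoxia against normoxia under ketamine on the left and ketamine against vehicle in normoxia on the right. Red marks settings in which limma gave an unadjusted p of 0.05 or less, and the dotted line is the value as reported, -0.38 on the left and 0.31 on the right. The left values keep their sign and pass except with normexp correction and within slide 1, and more of the right values fail to pass.

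In hypoxic fetuses, ketamine against vehicle gave 0 rises and 0 falls among the 12 probes, where 6.07% of all tested probes passed (2.58% higher and 3.49% lower). The groups overlapped for every one of the 12 probes, and did not overlap for 1.97% of all. The median change of the 9 subunit and assembly probes was 0.07 against 0.02 over all tested probes, and COX15 changed by -0.03 ± 0.12. The interaction, which tests whether hypoxia acted differently with ketamine, passed for 0 of the 12 probes, where 3.15% of all tested probes passed (2.05% higher and 1.1% lower). The COX15 interaction was -0.34 ± 0.17 (limma, adjusted p = 0.989), with a 95% interval of -0.71 to 0.03, so the difference between the responses of COX15 with and without ketamine did not pass. It passed in 5 of the other settings, the deposited value table (-0.36) and without normoxic vehicle replicate 3 (-0.44), hypoxic vehicle replicate 4 (-0.40), hypoxic ketamine replicate 2 (-0.39) or hypoxic ketamine replicate 4 (-0.40).

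**Figure D3:**
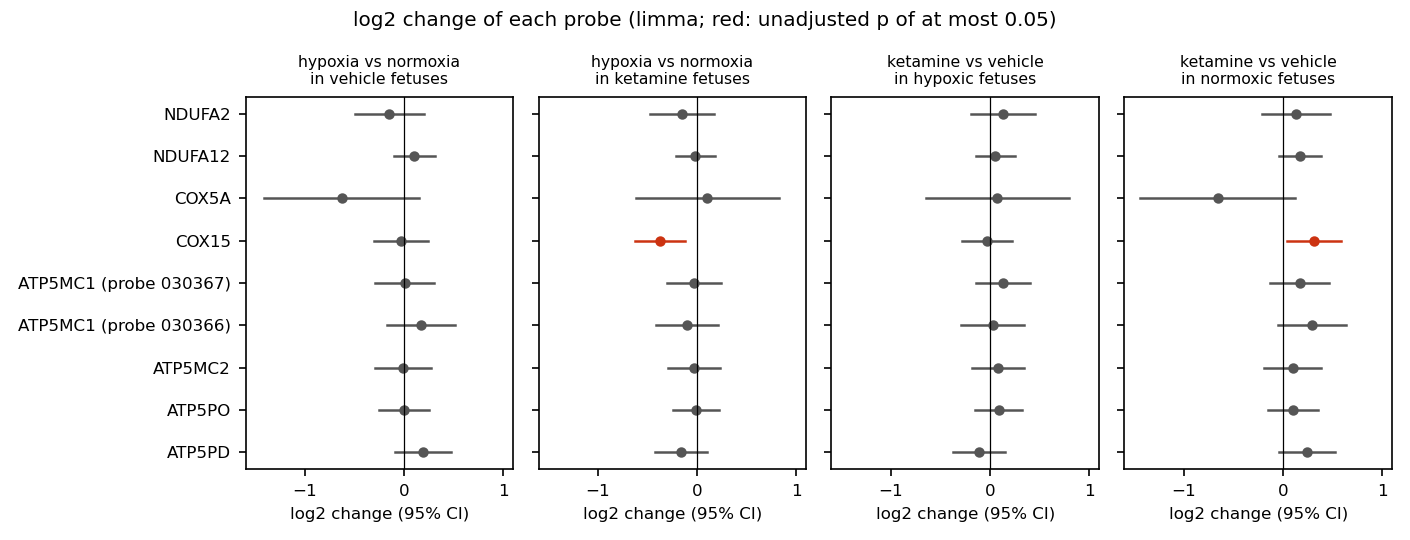
Each point is the log2 change of 1 probe in 1 of the 4 comparisons, with its 95% confidence interval from limma, and red marks an unadjusted p of at most 0.05. COX15 is red in 2 panels, at -0.38 and 0.31, and COX5A has the widest intervals.

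The ATP synthase members form the rotor and the peripheral stalk. ATP5MC1 and ATP5MC2 encode the c subunit of the membrane ring, the same mature protein from separate genes, and ATP5PO and ATP5PD encode the oligomycin sensitivity subunit and subunit d of the stalk. ATP5PD lay at -1.07, -0.84 and -0.94 in the normoxic vehicle fetuses and at -0.72, -0.45, -0.76 and -0.88 in the normoxic ketamine fetuses. It was at -0.62, -0.58, -0.88 and -0.96 in the hypoxic vehicle fetuses and at -0.86, -0.75, -0.97 and -0.90 in the hypoxic ketamine fetuses. The normoxic ketamine arrays were mostly higher than the normoxic vehicle arrays, with 1 array inside the other group's range, and the change of 0.25 ± 0.13 did not pass except without normoxic ketamine replicate 4 (0.31) and with the replicate numbers as a block (0.29). The interaction of ATP5PD was -0.36 ± 0.18 and did not pass (limma, adjusted p = 0.989), and it passed without normoxic ketamine replicate 4 (-0.42) or hypoxic vehicle replicate 4 (-0.42) and with the replicate block (-0.40).

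The member probes of the 3 other ATP synthase genes changed by at most 0.30 in any of the 4 comparisons between groups. ATP5PO ranged from 3.53 to 4.06 over the 15 arrays and ATP5MC2 from 5.58 to 6.14, and hypoxia changed them by 0.00 ± 0.12 and -0.01 ± 0.13 in vehicle fetuses. The 2 ATP5MC1 probes ranged from 5.36 to 6.06 (A_70_P030367) and from 5.17 to 5.95 (A_70_P030366) and followed each other across arrays with r = 0.86. With ketamine in normoxic fetuses they changed by 0.17 ± 0.14 and 0.30 ± 0.16, and neither passed, the latter except without normoxic ketamine replicate 1 (0.37) and with the replicate block (0.35).

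Another 2 probes that RefSeq names as ATP5MC1, described on the array only as expressed sequence tags, lay outside the rule. They followed each other (r = 0.97 over 15 arrays) but not the first probe pair, with r from -0.04 to 0.20. Both rose after hypoxia under ketamine, by 0.78 ± 0.35 (A_70_P016887) and 0.64 ± 0.29 (A_70_P016886), where the member probes changed by -0.03 and -0.10. The rise was -0.03 and 0.02 within slide 1, and it did not pass for either without normoxic ketamine replicate 3 (0.51 and 0.43), normoxic ketamine replicate 4 (0.70 and 0.60) or hypoxic ketamine replicate 1 (0.58 and 0.50). Over the 26 other settings the rise passed in 16 for the first and 11 for the second. Which strand of the gene the probes hold is not given in the sources used here, and values are given by probe only.

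Complex II was covered only by SDHD, a membrane anchor of succinate dehydrogenase, under a name that the rule did not hold. Its probe A_70_P039306 ranged from 2.02 to 2.60 over the 14 arrays with a value and changed by -0.27 ± 0.12 after hypoxia under ketamine, which did not pass (limma, adjusted p = 0.576). It passed in 6 of 25 other settings, with quantile normalization (-0.27), with only the compared groups (-0.27), in the value table (-0.29) and without normoxic ketamine replicate 4 (-0.31), hypoxic vehicle replicate 1 (-0.27) or hypoxic vehicle replicate 4 (-0.27). With vehicle it changed by -0.18 ± 0.12 after hypoxia, and it passed without hypoxic vehicle replicate 1 (-0.29). The other SDHD probes, A_70_P003311 and A_70_P003312, changed by -0.15 ± 0.15 and -0.11 ± 0.20 under ketamine, and no SDHD probe passed in any comparison with all arrays.

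Across arrays, the 8 subunit and assembly probes other than COX5A went up and down together. All 28 pairs of these 8 probes correlated positively over the 15 arrays, with a median r of 0.58 and a range of 0.24 to 0.86, and the median was 0.57 after group means were removed. The 8 pairs with COX5A had a median r of -0.15. The points share an array and its scaling, so these values are a description. The 8 include both ATP5MC1 member probes and the ATP5PD probe, whose strand is not given. The MT3 probes correlated with the 8 at 0.21 to 0.71 (A_70_P030067) and 0.06 to 0.58 (A_70_P030066). TC13187 correlated negatively with them, down to -0.61. A background of pairs of other probes was not computed, so the co-movement is not shown to be particular to these genes. The pooled SD within groups was 0.15 at the median of the 9 probes and 0.26 over all tested probes.

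**Figure D4:**
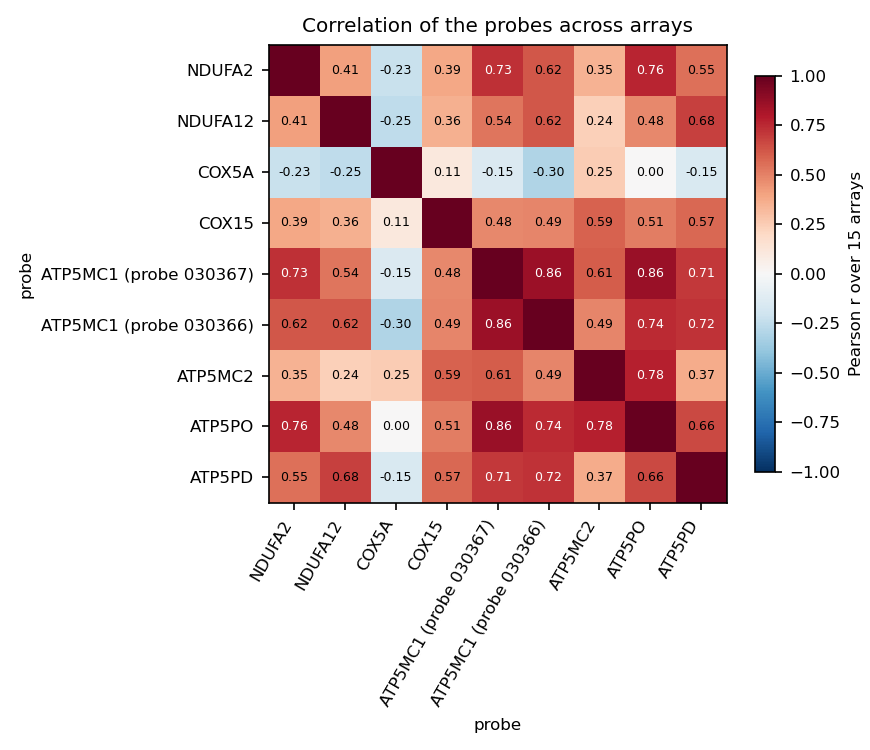
Each cell gives Pearson's r between 2 of the 9 subunit and assembly probes over the 15 arrays, from blue (negative) to red (positive). All cells outside the COX5A row and column are positive, the highest being 0.86, and the COX5A cells lie between -0.30 and 0.25.

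The named probes whose pattern over the 15 arrays was most like that of COX15 were those of ITGB5, an integrin subunit (r = 0.82 and 0.76 for its 2 probes), AQP8, a water channel (0.77), BAX, an apoptosis effector (0.77), and SLC39A3, a zinc transporter (0.77). The median r with COX15 was 0.05 over all tested probes.

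Only 1353 of the 15008 probes carried a gene symbol, so few other mitochondrial genes could be matched. No gene of the lists for the citric acid cycle and pyruvate entry or for mitochondrial import and chaperones was matched by symbol. Of 5 carriers, SLC25A4, SLC25A5, SLC25A6, SLC25A11 and VDAC1, 0 passed in any of the 4 comparisons, and SLC25A4, an ADP/ATP carrier, changed by 0.51 after hypoxia with vehicle. Of 5 genes of mitochondrial biogenesis and transcription, 1 fell after hypoxia with vehicle, SIRT4, a mitochondrial sirtuin, by 1.29 ± 0.42 (limma, adjusted p = 0.190). The SIRT4 signal was low, with a lowest array of -6.84 against -6.23 for the dim COX5A probe. SIRT4 ranged from -6.09 to -3.83 in normoxic vehicle fetuses and from -6.84 to -6.18 in hypoxic vehicle fetuses. Its change was -0.60 without normoxic vehicle replicate 3 and passed, and it was -0.57 with normexp correction and -0.31 within slide 1, where it did not. SIRT4 also fell with ketamine in normoxic fetuses, by 1.17 ± 0.42, and its interaction of 1.41 ± 0.57 passed (limma, adjusted p = 0.9998 and 0.989). Both rest on the normoxic vehicle mean of -5.21, against -6.50 to -6.26 in the hypoxic groups and -6.39 with ketamine in normoxia, and without normoxic vehicle replicate 3 they were -0.48 and 0.72 and did not pass. The interaction also failed to pass without normoxic ketamine replicate 4, hypoxic vehicle replicate 1 or hypoxic ketamine replicate 2 or 3 (1.29 to 1.32). Over the 24 other settings the SIRT4 interaction kept its call and size in 15 and ranged from 0.35 to 3.17. PPARGC1A, a coactivator of mitochondrial genes, changed by -0.38 and NRF1 by -0.16, and neither passed. The antioxidant enzymes SOD2 and TXN changed by 0.91 and -0.07, and neither passed.

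Fatty acid oxidation was covered by CPT1A, CPT1B and SLC25A20, of which 0 passed in either hypoxia comparison. Named after their values were seen, SLC25A20, the carnitine carrier, rose by 0.90 ± 0.29 with ketamine in normoxic fetuses, and CPT1A, which loads fatty acids onto carnitine, fell by 0.45 ± 0.18 with ketamine in hypoxic fetuses (limma, adjusted p = 0.9998 and 0.803). These changes were not recomputed without single arrays.

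Genes of glucose uptake and glycolysis were measured beside these. Of 7 measured genes on a list of the hypoxia-inducible factors and their targets, 4 rose and 0 fell after hypoxia with vehicle, where 5.77% of all tested probes were higher and 10.4% lower. SLC2A3, a glucose transporter, rose by 2.0 ± 0.47, LDHA, which makes lactate from pyruvate, by 1.26 ± 0.36, SLC2A1, another glucose transporter, by 0.94 ± 0.27, and ALDOA, a glycolytic aldolase, by 0.48 ± 0.17 (limma, adjusted p from 0.131 to 0.222). ALDOA did not pass without normoxic vehicle replicate 1 (0.39). Within slide 1, LDHA (1.01), SLC2A1 (0.44) and ALDOA (0.47) did not pass, nor did ALDOA within slide 2 (0.48). Under ketamine 0 of the 7 passed after hypoxia, and these 4 changed by 0.41, 0.43, 0.46 and 0.00. The interaction passed for SLC2A3 (-1.59 ± 0.64) and not for LDHA, SLC2A1 or ALDOA. Without normoxic vehicle replicate 2 (-1.48), normoxic ketamine replicate 3 (-1.46), hypoxic ketamine replicate 3 (-1.46) or hypoxic ketamine replicate 4 (-1.44) it did not pass for SLC2A3 either. Failures were not confined to arrays left out. Over the 25 other settings the SLC2A3 interaction kept its call and size in 19 and ranged from -2.34 to -0.78. With ketamine in hypoxic fetuses 3 of the 7 fell and 0 rose against vehicle, where 3.49% of all tested probes were lower. They were SLC2A3 (-1.47 ± 0.44), SLC2A1 (-0.61 ± 0.25) and, named after its values were seen, the vascular growth factor VEGFA (-0.68 ± 0.28), which was not recomputed without single arrays (limma, adjusted p from 0.800 to 0.803). Within slide 1 SLC2A3 (-0.69) and SLC2A1 (0.04) did not pass, nor did SLC2A1 without hypoxic vehicle replicate 1 (-0.49) or 3 (-0.42) or hypoxic ketamine replicate 3 (-0.40). The list was chosen with results of these arrays known, so its count is not independent evidence of its direction.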

How the data were processed

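Kidney cortex RNA of 15 fetal sheep was hybridised to one-colour Agilent arrays. Per the file headers, the authors deposited the scanner intensity of each spot as processed by Feature Extraction 10.1.1.1, linear, background subtracted and unscaled between arrays. The authors also deposited a table of log2 values for 11705 probes, all 12 members included. Its column medians are 8.98 to 8.99, its background correction is not given in the sources used here, and 12 of its 15 columns tracked another array of their own group, so it served only as an alternative. The submitters' processing notes name limma.

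The 75th percentile of each array was subtracted from its log2 intensities, outlier spots were left out, and probes well above background on at least 3 of 15 arrays were kept (12923 tested, 2085 dropped). limma 3.58.1 (R 4.3.3) was fitted to all 15 arrays with 1 mean per group (11 residual and 2.40 prior degrees of freedom), two-sided, with Benjamini-Hochberg adjustment over all tested probes in each comparison. The fit was tested on simulated data with planted log2 shifts of 1 and 2 in the hypoxic vehicle group. Those shifts are larger than the changes of the members, so the simulation does not cover changes of that size. Named were COX15, members with an unadjusted p of at most 0.05, the member of each complex with the largest change after hypoxia in vehicle fetuses, at most 4 genes per list past that threshold after hypoxia, and the 5 named probes most correlated with COX15. Sequences and descriptions are those of the array annotation, and gene names were updated through a RefSeq table and a hand-written list of old symbols. The array files give no genome build, and no coordinates are printed. Alternatives were normexp background correction (offset 50), quantile normalization, 2 other filters, the slide as a block and within slides, replicate numbers as a block, fits to the compared groups, the value table and leaving out each array. Leaving out the 3 arrays with placental lactogen and counting only annotated subunits were added after seeing the data. The 2 slides each held arrays of every group. Replicate numbers were not used to pair samples in the reported fit. Same-numbered arrays correlated from -0.29 to 0.37 over 21 pairs, with a mean of 0.03 against -0.01 for other arrays. These values do not show whether any of the samples were paired. The members, lists and tests were chosen with earlier results of these data known. The result of 1 marker gene is not reported here, and the gene was left out of its list.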

Additional observations from a re-analysis of the deposited data

Results flagged for a closer look

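Among 36 groups of 4 arrays looked at (12 probes in 3 groups), 3 held an array far from the other 3 by Dixon's criterion, which chance meets in about 1 of 20 groups. ATP5PO was 3.53 in hypoxic vehicle replicate 4, with the next array of the group at 3.86. ATP5MC2 was 6.14 in hypoxic ketamine replicate 4, with the next at 5.92. COX5A was -5.23 in normoxic ketamine replicate 3, with the next at -5.88.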

How the results depend on the processing

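After hypoxia with vehicle the count of member probes that passed was 1 within slide 2 and 0 to 1 with an array left out, against 0. After hypoxia with ketamine it was 0 with normexp correction and 0 within slide 1, against 1. For ketamine in normoxic fetuses it was 0 with normexp correction, within slide 1 and without the 3 arrays with placental lactogen, 2 with only the compared groups, 3 with replicate numbers as a block and 0 to 2 with an array left out, against 1. The interaction count was 1 within slide 2, 1 with the replicate block, 1 in the value table and 0 to 2 with an array left out, against 0. The median change of the 12 probes with ketamine in normoxic fetuses was 0.24 within slide 1 and -0.026 within slide 2, against 0.11. With the replicate block, ATP5MC1 (A_70_P030366, 0.35) and ATP5PD (0.29) also passed with ketamine in normoxic fetuses, as did the ATP5PD interaction (-0.40). The other 242 counts and medians stayed within 1.5 times or 1 SD. Among the changes of single probes and the counts over all probes, 3738 values moved no further than that and stayed on their side of the threshold, 110 no longer passed it, 62 newly passed it and 71 moved further. In addition 3 that passed changed sign, ATP5MC1 (A_70_P016887) after hypoxia under ketamine within slide 1 (-0.026), SLC2A1 with ketamine in hypoxic fetuses within slide 1 (0.039) and PAG11 with ketamine in normoxic fetuses within slide 2 (-0.027). The cause of these changes was not tested. Another filter, a fit to the compared groups only or leaving out an array of another group cannot move a probe's change or the members' median. Only the p can differ there, so the tallies of 242 and 3738 are partly fixed in advance. Over all tested probes the number that passed ranged over the settings from 664 to 2453 after hypoxia with vehicle (2086 as reported), 605 to 1373 with ketamine (1121), 276 to 1606 for ketamine in hypoxic (785) and 113 to 673 in normoxic fetuses (350), and 198 to 986 for the interaction (407). Low signal limits COX5A and SIRT4, and 3 to 4 arrays a group limit every comparison.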
